A study of Mus musculus with 17 samples.

Results

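The genes described here make, sense, destroy and move prostaglandins in cultured mouse follicles: the prostaglandin G/H synthases Ptgs2 and Ptgs1, the prostaglandin E synthases Ptges, Ptges2 and Ptges3, the prostaglandin E receptors Ptger2 and Ptger4, the degrading enzyme Hpgd, and the transporters Slco2a1 and Abcc4. They were chosen by gene symbol, with earlier results of these data known. All 10 were among the 25198 rows of the count table, and 8 of the 10 passed the filter on low counts, which 9603 genes passed in all. Ptgs2 fell and Ptges rose in follicles exposed to the EGFR kinase inhibitor, by edgeR's quasi-likelihood test adjusted over all genes tested. Each was 1 of 8 members tested, where 6.25% of all genes were called lower and 4.35% higher. Ptgs2 kept its call in all 12 other settings of the processing. Ptges kept its call in 8 of 12 and lost it without the library Tyrphostin 1. Ptgs1 and Hpgd did not pass the filter, and the other 6 members did not pass the test.

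Prostaglandins are made from arachidonic acid, which phospholipases free from membranes. A prostaglandin G/H synthase (cyclooxygenase) turns it into prostaglandin H2, and terminal synthases turn that into prostaglandin E2 (PGE2) and other prostanoids. In the ovary, the ovulatory surge of luteinizing hormone switches on Ptgs2 in mural granulosa and cumulus cells, and PGE2 acting through the EP2 receptor is needed for the cumulus to expand and for ovulation. EGF-like ligands and their receptor EGFR carry the ovulatory signal within the follicle.

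The samples were antral follicles of CD1 mice 16 days of age, grown for 8 days in eIVFG (encapsulated in vitro follicle growth), with 3 follicles pooled in each sample. The Tyrphostin libraries came from follicles exposed for 4 h to hCG, a hormone that acts on the luteinizing hormone receptor, and to 10 µM Tyrphostin AG1478 in DMSO, an inhibitor of the EGFR kinase. The same treatment text stands with every library, so whether Control follicles received hCG and DMSO is not given in the sources used here. There were 11 Control libraries (6 in batch 1 and 5 in batch 2) and 6 Tyrphostin libraries (3 in each batch). Sequencing libraries were prepared with the Smart-Seq2 protocol, which amplifies cDNA along the whole transcript. Whether libraries came from separate animals or cultures is not given.

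Total counts ran from 1820545 to 8291024 per library, so that a floor of 3 counts stood for 0.362 to 1.65 CPM (counts scaled to a common library total) on unadjusted totals. All other CPM values use totals adjusted by TMM, a scaling that sets the bulk of genes level between libraries. Inha, a granulosa gene, held 33998 to 52659 CPM in every library, while the granulosa genes Amh and Foxl2 had at most 4 and 30 counts in any library. Of the granulosa markers tested, 3 of 4 were called higher in Tyrphostin libraries (Cyp19a1, Nr5a2 and Fshr), against 4.35% of all genes. Of the markers of other cell types tested, 0 of 14 were called, where 6.25% of all genes were called lower and 4.35% higher. Their summed levels in Control and Tyrphostin libraries were 13.5 to 73 and 17.9 to 184 CPM for 7 oocyte genes, 230 to 1984 and 238 to 2754 for 7 theca and stroma genes, 5.55 to 84.6 and 6.9 to 29.8 for 5 endothelial genes, and 18.7 to 464 and 19.3 to 860 for 7 leukocyte genes. Both upper values of the theca and stroma and of the leukocyte lists in Tyrphostin libraries came from Tyrphostin 5. In bulk samples fewer cells of a type and less RNA per cell cannot be told apart.

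Ptgs2 encodes the inducible synthase of the first step. In the 6 Control libraries of batch 1 its level was 7268 CPM at the lowest, 11172 at the median and 14379 at the highest, and the 3 Tyrphostin libraries of that batch held 2581, 1262 and 1977 CPM. In batch 2 the 5 Control libraries held 3159, 3527, 4757, 2887 and 2647 CPM and the 3 Tyrphostin libraries 1017, 492.7 and 507.7 CPM. All Tyrphostin libraries lay below all Control libraries in each batch and over both batches together, which was so for 1% of the genes tested. With batch as a term, Ptgs2 fell 5.27-fold, by a log2 fold change of -2.40 ± 0.24 (SE; 95% interval -2.89 to -1.91; edgeR adjusted p = 5.33e-07). It was the only member called lower, at 1 of 8 members tested against 6.25% of all genes. Without Tyrphostin 5, the library with the highest theca, stroma and leukocyte markers, the estimate was -2.32.

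Ptgs2 was among the most abundant transcripts of these follicles. It held 0.286% to 1.26% of all counts in Control libraries, where it ranked between 9 and 52 among all genes. In Tyrphostin libraries it held 0.0542% to 0.241% and ranked between 56 and 262. The 95% Wilson interval of its share in the library with the lowest share, Tyrphostin 6, ran from 0.0522% to 0.0563%, and such intervals cover counting error only. The smallest Ptgs2 count in any library was 1828, so counting error was small beside the spread between libraries.

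**Figure D1:**
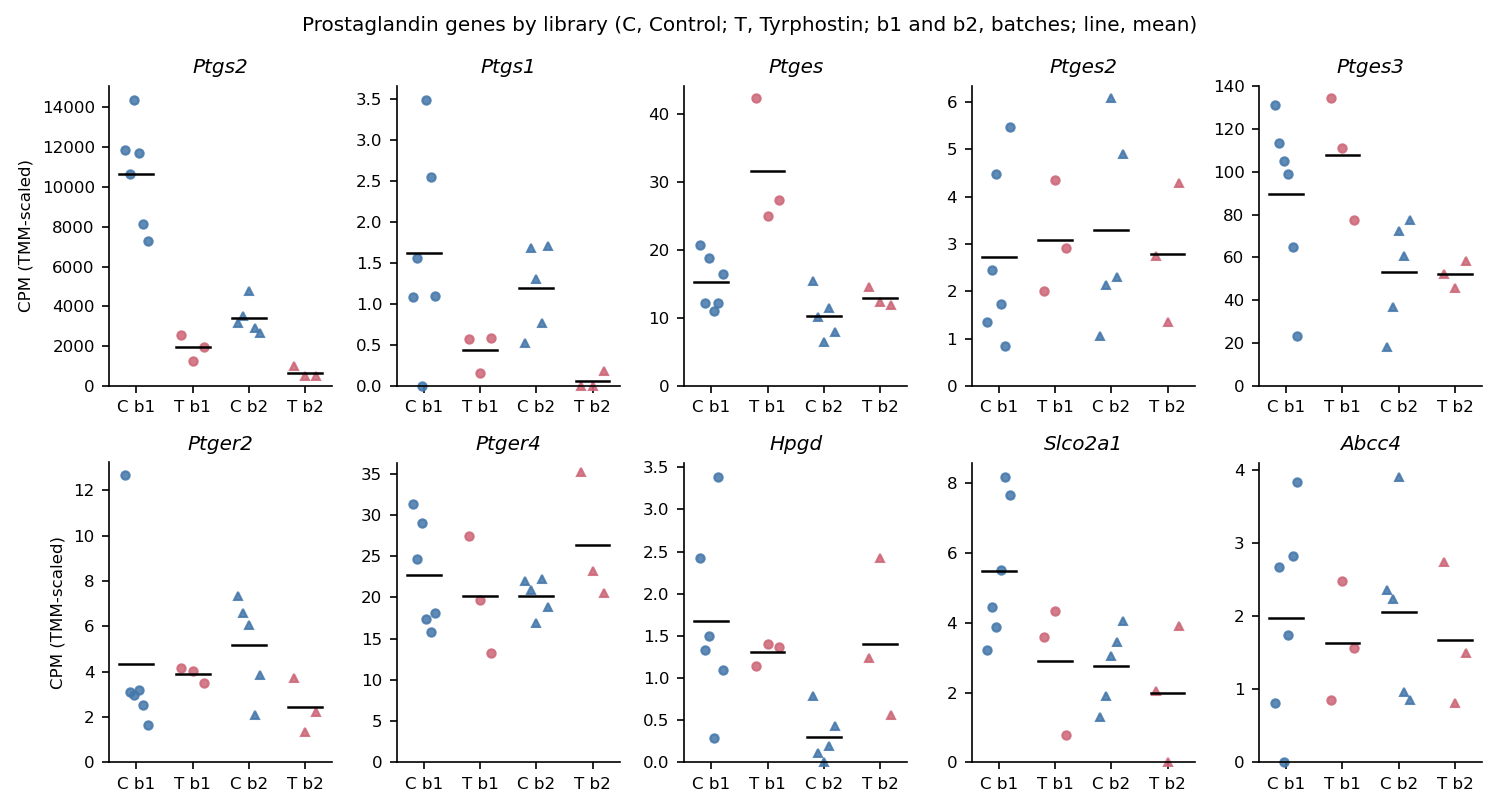
CPM of each prostaglandin gene in each library (y axis, own scale per gene, from 0), by group and batch on the x axis (C, Control; T, Tyrphostin; b1 and b2, batches 1 and 2); points are libraries and lines are means. Ptgs2 lies lower in all Tyrphostin libraries of both batches, and the Ptges points of the groups do not overlap in batch 1 (25 to 42.3 CPM against 11 to 20.8) and overlap in batch 2.

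The sequence before the start of Ptgs2 is shown because this gene had the largest change of the 8 members tested, and that of Ptges because it was called in the other direction. Ptgs2 lies at chr1:150100031-150108227 on the plus strand and Ptges at chr2:30889471-30929863 on the minus strand (GRCm38, GENCODE M21). The promoter sequences are those of RefSeq on GRCm38.p6, with the 250 bases before the annotated start on the gene's strand (chr1:150099781-150100030 for Ptgs2 and chr2:30903298-30903547 for Ptges) and, for Ptgs2, 30 bases after it (chr1:150100035-150100064). The RefSeq start of Ptges lies inside the longer GENCODE span of that gene, and the annotations thus use different starts. Positions are counted from the RefSeq start, and another start site would shift them. Capitals mark matches to the motifs searched.
Ptgs2 before the start: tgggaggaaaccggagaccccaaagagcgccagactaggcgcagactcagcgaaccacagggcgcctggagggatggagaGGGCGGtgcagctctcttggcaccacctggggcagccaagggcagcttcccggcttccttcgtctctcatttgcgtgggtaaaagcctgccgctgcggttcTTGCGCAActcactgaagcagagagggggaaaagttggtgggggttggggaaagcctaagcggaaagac
Ptgs2 after the start: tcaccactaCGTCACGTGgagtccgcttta
Ptges before the start: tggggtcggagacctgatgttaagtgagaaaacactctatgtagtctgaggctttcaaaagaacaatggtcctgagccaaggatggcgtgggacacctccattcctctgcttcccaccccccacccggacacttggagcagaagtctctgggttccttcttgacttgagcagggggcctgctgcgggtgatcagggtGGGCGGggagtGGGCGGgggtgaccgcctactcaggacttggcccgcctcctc

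A total of 6 motifs were searched on both strands of windows that ran from 250 bases before to 50 after the start, and all 10 members had a window. TTGCNNAA, a core that C/EBP factors bind, began 69 bases before the Ptgs2 start and is present in 10.8% of 32817 such windows. TGACG, the core of the cyclic AMP response element, was found on the reverse strand from base 14 after the annotated start (20.8% of windows). CACGTG, an E-box, began at base 17 (7.15% of windows) and shares 2 bases with it. With a start further downstream, both matches would lie before the start. Of the 10 members, 3 held TTGCNNAA (Ptgs2, Ptger2 and Abcc4), 2 held TGACG (Ptgs2 and Ptges3) and 3 held CACGTG (Ptgs2, Ptges2 and Abcc4). The Ptges window held GGGCGG, the GC box, at 2 places, 53 and 42 bases before the start, and none of the other motifs. GGGCGG was present in 7 of 10 members and in 35.6% of all windows. TATAAA was found in Hpgd and Slco2a1 (13.6% of windows) and TGANTCA, an AP-1 site, in 0 members (7.81% of windows). These matches describe the letters and not bound sites.

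The other members lie on 6 chromosomes of the same build. Ptgs1 (chr2:36230426-36252272, plus) and Ptges2 (chr2:32395896-32405772, plus) share chromosome 2 with Ptges, and Ptger2 (chr14:44988195-45003820, plus) and Abcc4 (chr14:118482692-118706219, minus) share chromosome 14. Ptges3 lies at chr10:128058954-128077272 (plus), Ptger4 at chr15:5206661-5244187 (minus), Hpgd at chr8:56294585-56321043 (plus) and Slco2a1 at chr9:102988712-103096002 (plus).

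Ptgs1 encodes the constitutive synthase of the same step, and its RNA was near the limit of detection. Control libraries held 0 to 15 Ptgs1 counts each (66 counts in 46466354 over 11 libraries) and Tyrphostin libraries 0 to 4 (9 counts in 33160724 over 6 libraries). In batch 2 the 3 Tyrphostin libraries had 0, 0 and 1 counts, and each Control library had 2 to 15. With no filter on low counts, Ptgs1 stood at -2.41 ± 0.69 in log2 (SE; edgeR adjusted p = 0.022), and it was then called lower together with Ptgs2, against 2.21% of the 21622 genes in that fit. Within each batch alone Ptgs1 did not pass with no filter (edgeR adjusted p = 0.314 in batch 1 and 0.155 in batch 2).

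Of the terminal synthases, Ptges encodes the inducible microsomal PGE synthase, which works together with Ptgs2. In batch 1 the Control libraries held 11 CPM at the lowest, 14.3 at the median and 20.8 at the highest, and the Tyrphostin libraries 42.3, 25 and 27.3 CPM. In batch 2 the Control libraries held 15.5, 10.1, 6.51, 11.5 and 7.9 CPM and the Tyrphostin libraries 14.5, 12.4 and 11.9 CPM. The groups did not overlap in batch 1 and did overlap in batch 2. Over both batches Ptges rose by a log2 fold change of 0.72 ± 0.21 (SE; 95% interval 0.30 to 1.15; edgeR adjusted p = 0.0251). It was the only member called higher, 1 of 8 tested against 4.35% of all genes. The call was lost without Tyrphostin 1 (log2 fold change 0.54, edgeR adjusted p = 0.12) and with Control libraries summed by the 5 sets that their names give (0.75, edgeR adjusted p = 0.0556). It was also lost without the batch term (edgeR adjusted p = 0.091) and with total count as a covariate (0.115).

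Ptges3 encodes the cytosolic PGE synthase, known also as the HSP90 partner p23, and was the most abundant per length of the 3 PGE synthase genes. It averaged 73 ± 37 CPM over the Control libraries (SD, n = 11) and 79.9 ± 35.6 CPM over those with Tyrphostin (SD, n = 6). The log2 fold change was 0.13 ± 0.29 (SE; 95% interval -0.48 to 0.73; edgeR adjusted p = 0.85). Ptges2, which encodes a membrane-associated PGE synthase, averaged 2.98 ± 1.89 CPM (SD, n = 11) and 2.94 ± 1.2 CPM (SD, n = 6), with a fitted difference of 0.06 ± 0.39 in log2 (SE; 95% interval -0.74 to 0.87). Its 3 to 28 counts per library leave an interval that includes falls and rises of about the size seen for Ptges. The sign for Ptges2 and Ptges3 varied with the processing.

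Ptger2 encodes EP2, the receptor through which PGE2 raises cyclic AMP in cumulus cells. Control libraries held 1.64 CPM at the lowest, 3.19 at the median and 12.7 at the highest, and Tyrphostin libraries 1.35, 3.61 and 4.16 CPM. The groups overlapped, and the log2 fold change of -0.58 ± 0.38 (SE; 95% interval -1.35 to 0.20; edgeR adjusted p = 0.382) did not pass the test. The estimate rested in part on Control 1, the library at 12.7 CPM, and was -0.25 without it. Within batch 2 alone it was -1.02 ± 0.48 (SE; edgeR adjusted p = 0.476), where Control libraries held 2.11 to 7.35 CPM and Tyrphostin libraries 1.35 to 3.70.

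Ptger4 encodes EP4, the other PGE2 receptor coupled to cyclic AMP. Over Control libraries of both batches pooled it had the lowest coefficient of variation of the members, at 23.3%. Within Control libraries of batch 1 its value was 28.8%, above 24.5% for Ptgs2 and 26.5% for Ptges, and within those of batch 2 it was 11.3%. Ptger4 averaged 21.6 ± 5.02 CPM over the Control libraries (SD, n = 11) and 23.2 ± 7.50 CPM over those with Tyrphostin (SD, n = 6). The log2 fold change of 0.10 ± 0.20 (SE) had a 95% interval from -0.30 to 0.51, and its sign varied with the processing. In GENCODE M21 15.3% of the exon bases of Ptger4 overlap a processed pseudogene on the opposite strand. Reads of such pairs may not be told apart in these libraries.

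Hpgd encodes 15-hydroxyprostaglandin dehydrogenase, which inactivates prostaglandins. It had 0 to 12 counts per Control library and 3 to 9 per Tyrphostin library, too few for the filter. The Control libraries of batch 2 held 7 Hpgd counts in all, in 23748029 counts, and those of batch 1 held 35 in 22718325. With no filter Hpgd stood at 0.73 ± 0.56 in log2 (SE; edgeR adjusted p = 0.56) and did not pass the test. Within batches it stood at -0.30 ± 0.68 in batch 1 and 2.11 ± 0.98 in batch 2 (SE; edgeR adjusted p = 0.875 and 0.57). The difference between the batches was 2.40 ± 1.17 (SE; edgeR unadjusted p = 0.0399, adjusted p = 0.783).

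Slco2a1 encodes the transporter that takes prostaglandins up from outside the cell, and Abcc4 an efflux pump that can carry them out. Slco2a1 averaged 4.24 ± 2.15 CPM over the Control libraries (SD, n = 11) and 2.45 ± 1.79 CPM over those with Tyrphostin (SD, n = 6), of which 1 (Tyrphostin 5) had 0 counts. Its log2 fold change was -0.65 ± 0.42 (SE; 95% interval -1.52 to 0.22; edgeR adjusted p = 0.38), and 2 of 6 Tyrphostin libraries lay below every Control library. Slco2a1 is known in endothelium. The endothelial marker genes summed to a median of 17.3 CPM in Control and 14.4 CPM in Tyrphostin libraries, Cdh5, the only one tested, was not called, and their part in the Slco2a1 values was not tested. Abcc4 averaged 2.02 ± 1.27 CPM (SD, n = 11) and 1.66 ± 0.81 CPM (SD, n = 6), with a fitted difference of -0.18 ± 0.46 in log2 (SE; 95% interval -1.14 to 0.78), and its sign varied with the processing.

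**Figure D2:**
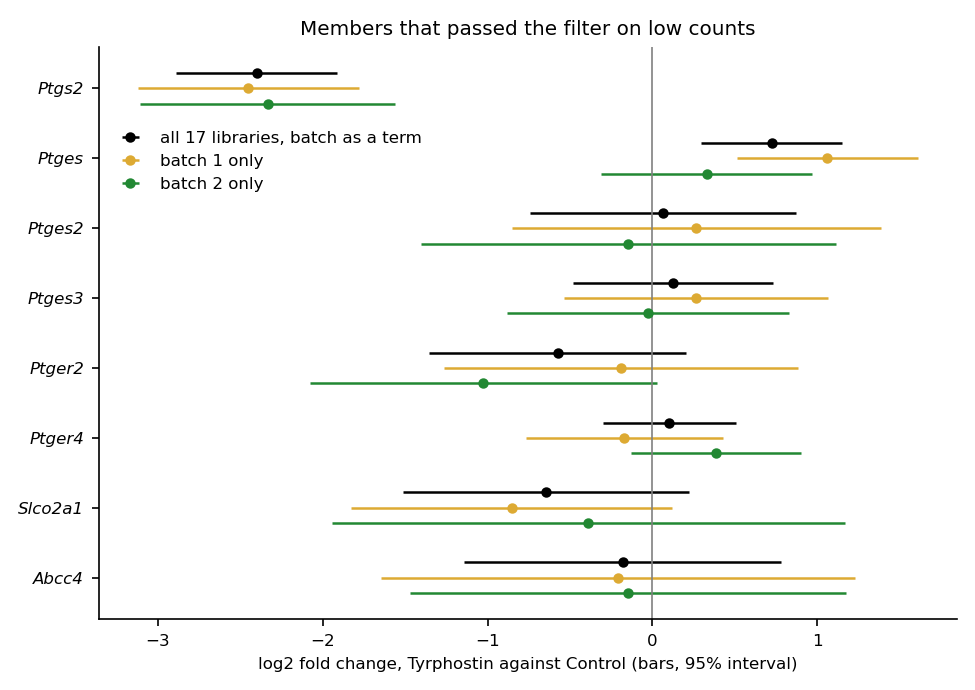
Log2 fold change of Tyrphostin against Control (x axis) for the 8 members that passed the filter (y axis), in all 17 libraries and within each batch; points are edgeR estimates and bars 95% intervals. Only the intervals of Ptgs2 lie apart from 0 in all 3 fits, around -2.40, -2.45 and -2.33; that of Ptges does so over all libraries and in batch 1.

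Over the 8 members tested, 4 estimates were below 0 and 4 above, with a median log2 fold change of -0.06 against 0.00 over all genes. Within PGE2 synthesis alone 1 gene fell, 1 rose, 2 did not pass the test, and Ptgs1 failed the filter (-2.41 in log2 with no filter). With total counts in place of TMM scaling the median of all genes moved to 0.15, and the values for Ptgs2 and Ptges became -2.25 and 0.86.

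A ratio of 2 members within a library does not depend on how libraries are scaled. For each of 4 pairs of genes that passed the filter, the log2 ratio was set against its value under all 4704 ways to assign the labels within batches (exact permutation test, two-sided). The ratio of Ptges to Ptges3 had a mean log2 value of -2.33 ± 1.08 over Control libraries (SD, n = 11) and of -1.88 ± 0.29 over Tyrphostin ones (SD, n = 6). The mean difference within batches was 0.44 (exact permutation p = 0.38, adjusted p = 0.38 over the 4 ratios). The ratio of Ptges to Ptges2 differed by 0.60 (exact permutation p = 0.281, adjusted p = 0.375). The ratio of Ptger2 to Ptger4 averaged -2.36 ± 0.77 (SD, n = 11) and -2.87 ± 0.75 (SD, n = 6), a difference of -0.53 (exact permutation p = 0.207, adjusted p = 0.375) made of 0.33 in batch 1 and -1.40 in batch 2. The ratio of Abcc4 to Slco2a1 differed by 1.2 (exact permutation p = 0.134, adjusted p = 0.375). It rested in part on libraries at 0 counts, where the 0.5 added sets the ratio (Control 3, with no Abcc4 count, at -4.75, and Tyrphostin 5, with no Slco2a1 count, at 2.81). The difference was 0.65 without Tyrphostin 5 and 0.60 with 3 added in place of 0.5. None of these 4 ratios passed the test.

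The batches were then examined apart. In batch 1, 1 member was called lower (Ptgs2, -2.45 ± 0.32, SE; edgeR adjusted p = 0.000111) and 1 higher (Ptges, 1.06 ± 0.26, SE; edgeR adjusted p = 0.0176), against 3.79% and 2.94% of all genes. Without Tyrphostin 1 the Ptges value of batch 1 was 0.79 and lost its call (edgeR adjusted p = 0.145). In batch 2, Ptgs2 was called lower (-2.33 ± 0.35, SE; edgeR adjusted p = 0.0127), against 0.427% of all genes, and 0 members were called higher, against 0.193%. The Ptgs2 call of batch 2 was lost without Tyrphostin 5 (-2.16, edgeR adjusted p = 0.1) or Tyrphostin 6 (-2.16, edgeR adjusted p = 0.125). Ptges in batch 2 was 0.33 ± 0.29 (SE; edgeR adjusted p = 0.786).

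The difference between the batches was tested as an interaction, which called 0 members and 0% of all genes by edgeR (342 of 9603 genes, and 0 members, had an unadjusted p under 0.05, while DESeq2 called 0 members). For Ptgs2 the batch 2 effect minus the batch 1 effect was 0.12 ± 0.43 (SE; 95% interval -0.77 to 1.02). For Ptges it was -0.73 ± 0.40 (SE; 95% interval -1.56 to 0.10; edgeR unadjusted p = 0.0823). The change of Ptges in batch 1 alone is thus not shown to differ from that in batch 2.

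Control libraries of the 2 batches also differed in Ptgs2. Among Control libraries Ptgs2 was lower in batch 2 by a log2 difference of -1.63 ± 0.24 (SE; edgeR adjusted p = 0.000531). It was the only one of the 4 members tested there to be called, against 6.77% of genes lower and 7.26% higher in batch 2. The lowest Control library of batch 2 (2647 CPM) lay just above the highest Tyrphostin library of batch 1 (2581 CPM). By the sets in their names, Control libraries averaged 12297 and 9037 CPM in the 2 sets of batch 1 and 3343, 4757 and 2767 CPM in the 3 sets of batch 2. Ptges, Ptges3 and Ptger4 had batch differences of -0.52 ± 0.26, -0.73 ± 0.41 and -0.14 ± 0.22 (SE) and did not pass the test. The summed theca and stroma and leukocyte markers had medians of 1116 and 122 CPM in Control libraries of batch 2 and of 399 and 37.4 CPM in those of batch 1, and their part in the Ptgs2 difference was not tested.

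Levels of different genes were compared as CPM per kilobase of exon in GENCODE M21. In Control libraries Ptgs2 stood first at 1607 ± 929 (SD, n = 11) and Ptges3 second at 32.9 ± 16.7, both apart from all genes below them. Ptges (3.30 ± 1.13) and Ptger4 (3.24 ± 0.76) came next and did not differ beyond their spread. Ptger2 (0.913 ± 0.625), Hpgd (0.624 ± 0.634), Ptges2 (0.590 ± 0.374), Ptgs1 (0.368 ± 0.246), Abcc4 (0.316 ± 0.199) and Slco2a1 (0.313 ± 0.159) followed, each within the spread of its neighbours. In Tyrphostin libraries the first 4 places were the same, with Ptgs2 at 285 ± 182 (SD, n = 6), Ptges3 at 36 ± 16.1, Ptges at 5.66 ± 3.01 and Ptger4 at 3.49 ± 1.13. Ptgs1 stood last there at 0.0644 ± 0.0686. Ptgs2 thus remained the most abundant member per length under the inhibitor.

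**Figure D3:**
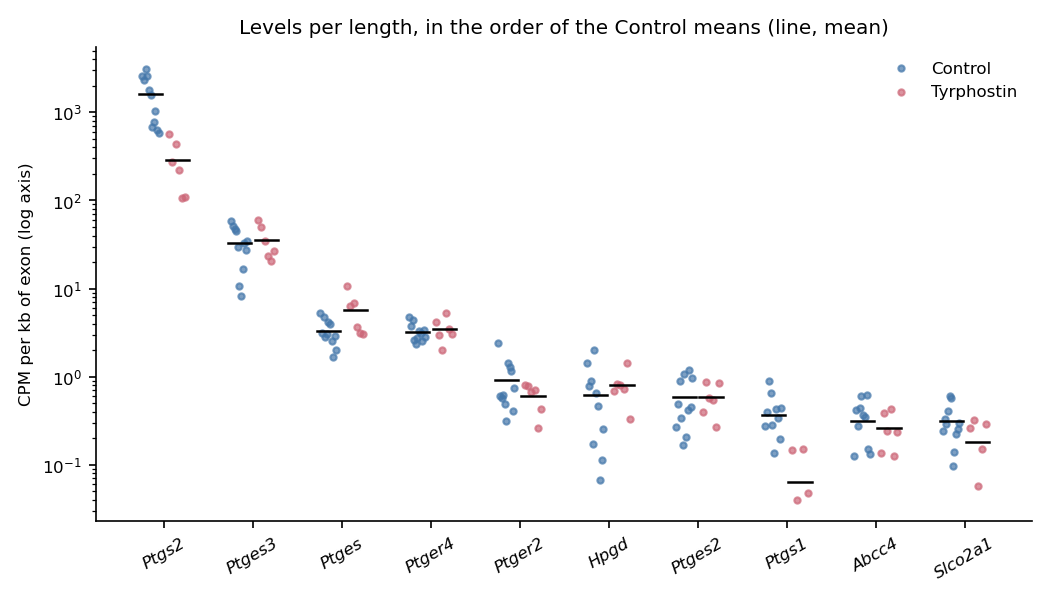
CPM per kilobase of exon (y axis, log scale) of the 10 genes in the order of their Control means (x axis), for Control and Tyrphostin libraries; points are libraries, lines are means, and libraries at 0 counts have no point but enter the means. Ptgs2 lies far above the other members in both groups, with means of 1607 and 285 against 32.9 and 36 for Ptges3.

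The genes whose pattern over the 17 libraries came closest to that of Ptgs2 were found by the root mean square difference of centred log2 CPM among 6332 genes of average log2 CPM of at least 3. They were Tnfaip6 (0.485), a protein that links hyaluronan in the cumulus matrix, Hmga1 (0.503), a chromatin protein, and Flnc (0.504), an actin-binding filamin, where the median gene stood at 1.55. The measure contains the difference between the groups, so a like fall in Tyrphostin libraries follows from the choice of these genes. Their log2 fold changes were -2.24 ± 0.24, -1.97 ± 0.24 and -2.32 ± 0.18 (SE), given as a description. For Ptges the closest were Timm17b (0.300), a subunit of mitochondrial protein import, Sufu (0.334), an inhibitor of hedgehog signalling, and Scpep1os (0.338), an antisense transcript whose reads may not be told apart from its partner gene, where the median gene stood at 0.783. Libraries share batch and depth, which enter this measure.

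Other genes of prostanoid and related lipid pathways were read from a fixed list of 46 symbols, of which 44 were in the table and 19 passed the filter. By edgeR 3 of 19 were called lower and 1 higher, against 6.25% and 4.35% of all genes, with a median log2 fold change of 0.10 against 0.00 over all genes. Of the receptors, Ptgfr, which encodes the receptor of prostaglandin F2α, rose in Tyrphostin libraries, by a log2 fold change of 1.26 with an SE of 0.23 (edgeR adjusted p = 0.000689). Control libraries averaged 9.71 ± 6.41 CPM (SD, n = 11) and Tyrphostin libraries 22.1 ± 9.77 CPM (SD, n = 6). It passed in each of the 17 fits made with 1 library removed, and lost its call without the batch term (edgeR adjusted p = 0.0611). Ptger1, the EP1 receptor gene, was the only other one of 8 receptor genes to pass the filter (0.14 ± 0.25, SE), and Ptger3, Ptgir, Ptgdr, Ptgdr2 and Tbxa2r had at most 17 counts in any library.

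Of the phospholipases, Pla2g4a, which encodes the cytosolic phospholipase A2 that frees arachidonic acid, was high in both groups. It averaged 440 ± 187 CPM over the Control libraries (SD, n = 11) and 281 ± 134 CPM over those with Tyrphostin (SD, n = 6), and the estimate of -0.55 ± 0.26 in log2 (SE; edgeR adjusted p = 0.21) did not pass the test. Pla2g6 (0.58 ± 0.27, SE, edgeR adjusted p = 0.185) did not pass it either. Nor did Plaa (-0.02 ± 0.15, SE), which is named as an activating protein and was listed with the phospholipases. Of the other synthases and reductases listed, Akr1b8, an aldo-keto reductase, fell in Tyrphostin libraries, by a log2 fold change of -1.24 with an SE of 0.30 (edgeR adjusted p = 0.0103). Whether Akr1b8 takes part in prostanoid synthesis was not tested. Control libraries averaged 217 ± 119 CPM (SD, n = 11) and Tyrphostin libraries 97.4 ± 75.7 CPM (SD, n = 6). It passed in 9 of 12 other settings, and its call was lost with Control sets summed (edgeR adjusted p = 0.0867), without the batch term (0.0733) and in 1 further setting. Akr1b3, Cbr1 and Ptgis had log2 fold changes of -0.03, 0.13 and 0.10.

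Among transporters Abcc1, an efflux pump related to Abcc4, fell in Tyrphostin libraries, by a log2 fold change of -0.83 with an SE of 0.17 (edgeR adjusted p = 0.00202). Control libraries averaged 79.8 ± 25.9 CPM (SD, n = 11) and Tyrphostin libraries 43.2 ± 8.29 CPM (SD, n = 6). The interval of Abcc1 ran from -1.18 to -0.48 and overlapped the wider one of Abcc4, and the difference between the 2 genes was not tested. Slco4a1 (-0.85 ± 0.30, SE; edgeR adjusted p = 0.0694) and Slco3a1 (0.56 ± 0.27, SE; edgeR adjusted p = 0.208) did not pass the test. Akr1c18, best known as the enzyme that inactivates progesterone, fell by 2.27 on the log2 scale, with an SE of 0.69 (edgeR adjusted p = 0.0421), a call at the threshold that did not hold in 10 of the 17 fits made with 1 library removed (Control 1, 2, 3, 7 or 8, or Tyrphostin 1, 2, 3, 4 or 6). The value without Tyrphostin 5 was -3.71. Akr1c18 passed in 6 of 11 other settings. Its call was lost in 5, among them Control sets summed (edgeR adjusted p = 0.164) and no batch term (0.289). Of 4 lipoxygenase-arm genes tested (Aloxe3, Lta4h, Mgst3 and Gpx4), 0 passed over all libraries. Within batch 1 Aloxe3, an epidermal-type lipoxygenase, was called lower (-2.86 ± 0.63, SE, edgeR adjusted p = 0.00898), against 3.79% of all genes. That call rested on 3, 4 and 1 counts in the Tyrphostin libraries of batch 1. In batch 2 Aloxe3 was not called (0.27 ± 0.53, SE), and its difference between the batches did not pass the test after adjustment. Gpx4, a lipid peroxide reductase, stood at 0.53 ± 0.26 in log2 (SE; edgeR adjusted p = 0.217).

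**Figure D4:**
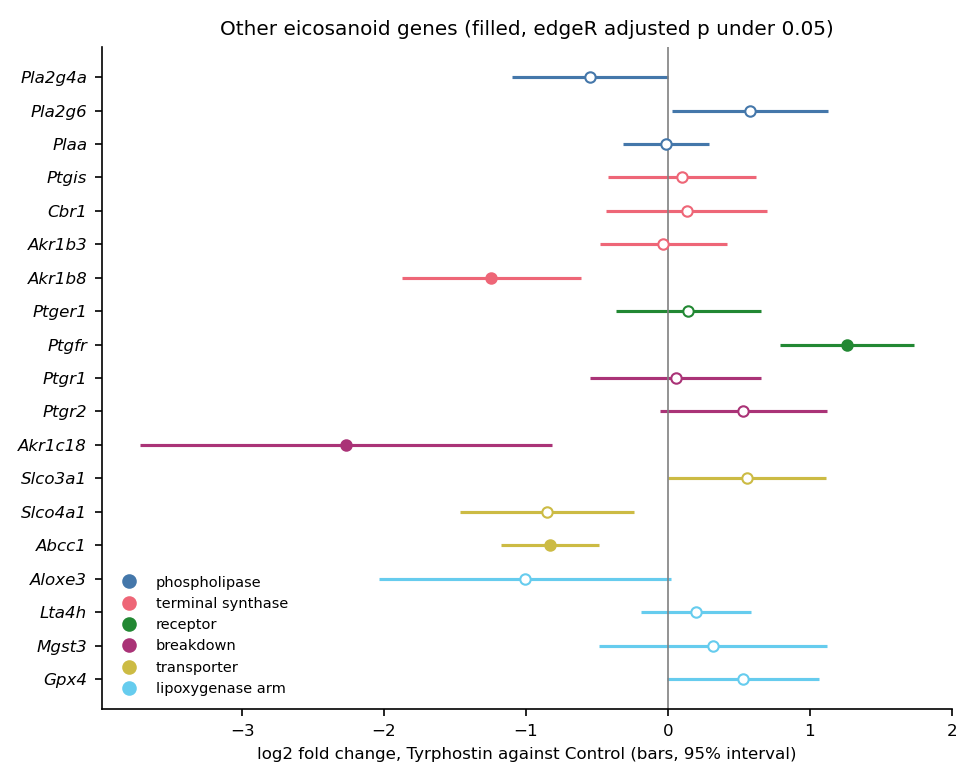
Log2 fold change of Tyrphostin against Control (x axis) for the 19 other eicosanoid genes that passed the filter (y axis, coloured by role); points are edgeR estimates over 17 libraries, bars 95% intervals, and filled points have an adjusted p under 0.05. The filled points are Ptgfr at 1.26, Abcc1 at -0.83, Akr1b8 at -1.24 and Akr1c18 at -2.27.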

How the data were processed

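The file deposited by the authors gives raw read counts by gene symbol, in 25198 rows; 3576 of them were 0 in every library. Per the submitters' processing notes STAR, HTSeq and GRCm38 were used; versions, annotation and strand setting are not given in the sources used here. The members and lists were chosen with earlier results of these data known. The text names all 10 members, the other eicosanoid genes called or highest in their role, and the 3 genes nearest each called member.

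The counts entered edgeR 4.0.16 (R 4.3.3; low-count filter filterByExpr by treatment, TMM, glmQLFit with robust estimation, quasi-likelihood F test), with batch as a term over 17 libraries and Benjamini-Hochberg adjustment over all genes tested. A fold change is called at an adjusted p under 0.05. The SE was obtained from the estimate and the F statistic. CPM uses TMM-scaled totals. Ratios used counts plus 0.5; 2 of 6 fixed ratios were left out because Ptgs1 or Hpgd failed the filter. All 31 pairs of libraries within a group and batch differed beyond sampling noise, so none were merged; whether libraries are separate cultures is not stated, and p-values then measure the spread between libraries only. PCR copies cannot be removed without molecular identifiers. Alternatives included DESeq2 1.42.0 and limma-voom (limma 3.58.1). The code was tested on simulated counts.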

Additional observations from a re-analysis of the deposited data

Results flagged for a closer look

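Dixon's gap was computed for each member's CPM in the Control libraries of batch 1, those of batch 2 and the Tyrphostin libraries, 30 groups in all, to find single libraries that stood apart. Chance gives about 1.5, and 1 was found. Ptger2 stood at 12.7 CPM in Control 1 (47 counts), against 1.64 to 3.19 CPM in the remaining batch 1 Control libraries. Leaving it out, the log2 fold change of Ptger2 came to -0.25 in place of -0.58, and neither value passed the test. The summed endothelial markers were also highest in Control 1, at 84.6 CPM; their part in the Ptger2 value was not tested.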

How the results depend on the processing

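The count of members lower in Tyrphostin libraries, 1, was 1 in 12 of 13 alternatives and in all 17 fits that left out a library; with no filter it was 2 (Ptgs2 and Ptgs1), since more genes were then tested. Ptgs2 kept its direction and call in all 12 fits of other settings (log2 fold change -2.71 to -2.25) and all 17 without a library (-2.57 to -2.29). The count of members higher, 1 (Ptges), dropped to 0 with log10 total count added to the model, with batch left out of it, with Control sets summed, with the replicate block and at an adjusted p under 0.01, and 0 to 1 when a library was left out (0 without Tyrphostin 1). The count within batch 1 was 1 to 2 and that within batch 2 was 0 to 1 when a library was left out; the cause was not tested. The sign changed for Ptges2 (-0.12 to 0.22 when a library was left out), Ptger4 (-0.047 to 0.24 when a library was left out, -0.53 with the replicate block), Ptges3 (-0.039 with log10 total count, -0.14 with the replicate block) and Abcc4 (0.066 in limma-voom). The 4 ratios passed under 0 of 21 alternatives each. Over all genes 1018 were called, against 678 with log10 total count, 619 with no batch term and 624 with the replicate block, and total-count scaling raised the share of calls that were higher from 41.1% to 64.4%. Libraries 1 to 6 of both groups share numbers. Deviations of same-numbered libraries from the means of their group were correlated across genes. The r was 0.31 to 0.47 for numbers 1 to 3, whose libraries share batch 1. It was -0.13 to 0.01 for numbers 4 to 6, which set a batch 1 Control against a batch 2 Tyrphostin library. Batch was not removed from these deviations, so r cannot tell pairs from a shared batch. Of 6 Control libraries, 2 correlated best with their own number (1 and 3, both in batch 1), and batch enters this count too. The labels give no basis for pairs, so none were taken, and pairing within batch 1 was not settled. With batch also in that model, the treatment estimate of the block fit rests on numbers 1 to 3. With the replicate block, Ptgs2 was at -2.71 and Ptges at 0.87 (edgeR adjusted p = 0.0614), and Akr1b8 lost its call (0.0647). Depth limits Ptgs1, Hpgd, Abcc4, Ptges2 and Slco2a1, each with at most 29 counts in any library.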

Other observations

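Some other eicosanoid genes differed between the batches among Control libraries. Akr1c18 held 0 to 2.99 CPM in Control libraries of batch 1 and 8.33 to 27 CPM in those of batch 2, with no overlap. Within batch 2 the Tyrphostin libraries held 1.92, 9.97 and 0 CPM. Akr1b8 was higher in Control libraries of batch 2 by a log2 difference of 0.84 ± 0.27 (SE; edgeR adjusted p = 0.0495), while Pla2g4a and Abcc1 were lower, with differences of -0.86 ± 0.27 and -0.67 ± 0.21 (SE; edgeR adjusted p = 0.0416 for both), where 7.26% of all genes were called higher and 6.77% lower. The Tyrphostin effect on Ptgfr was 1.64 ± 0.32 (SE; edgeR adjusted p = 0.00395) in batch 1 and 0.89 ± 0.29 (SE; edgeR adjusted p = 0.238) in batch 2, and their difference did not pass the test (-0.75 ± 0.45, SE; edgeR unadjusted p = 0.11). Aloxe3, a lipoxygenase family gene named here after its values were seen, held 0.43, 0.622 and 0.195 CPM in Tyrphostin libraries of batch 1 against 1.09 to 4.64 CPM in Control libraries of that batch, and 1.78, 4.58 and 1.49 CPM against 1.34 to 3.47 CPM in batch 2. Its effect in batch 2 minus that in batch 1 was 3.14 ± 0.80 in log2 (SE; edgeR unadjusted p = 0.00067, adjusted p = 1.00), on 1 to 23 counts per library.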
